A study of Mus musculus with 10 samples.

Results

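The genes described here are 8 genes of the alternative (M2-like) activation programme of macrophages: Il4ra, Stat6, Klf4, Pparg, Mrc1, Mgl2, Retnla and Chil3. They were chosen by name out of 21887 protein-coding mouse genes, not by their measured values, though earlier results of these data were known. For each gene, the p65 peaks of 9 CUT&Tag libraries were collected over the gene body and 10 kb on each side, called the gene window below. All 8 genes had a peak in at least 1 library, 170 peaks in all, and where peaks of different libraries overlapped they were merged into a region, which gave 66 of the 235070 regions of the series.

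All libraries came from wild-type RAW264.7 cells, macrophage-like mouse cells that grew out of an Abelson murine leukemia virus tumour. Treatment lasted 12 h, with DMSO alone as the solvent control (3 libraries), with DMSO plus lipopolysaccharide, the outer membrane glycolipid of Gram-negative bacteria (3 libraries, called LPS), or with LPS and skatole, a tryptophan product of gut bacteria (3 libraries, called LPS+Skatole). No group received interleukin-4, the usual inducer of this programme, so the libraries describe p65 at these genes under an inflammatory stimulus. No group received skatole without LPS. The labels name a p65 antibody and the methods of the study an antibody to phosphorylated p65, so the form that was captured is not settled here. A Blank sample without antibody was not analysed here, and no value is corrected for it. All groups are 1 cell line, and nothing in the labels says that the 3 libraries of a group came from separate cultures, so p-values measure the spread between these libraries only.

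In alternative activation, interleukin-4 or interleukin-13 binds a receptor that contains the chain encoded by Il4ra. The receptor activates Janus kinases, which phosphorylate the transcription factor Stat6. Stat6 then acts with Klf4 and Pparg on effector genes such as Mrc1, Mgl2, Retnla and Chil3. The p65 protein (RelA) is a subunit of NF-κB, which LPS releases into the nucleus. In CUT&Tag an antibody directs a transposase to such a protein on chromatin, and the released fragments are sequenced. A stronger summit in such a pool of cells cannot be told apart from p65 bound in more of the cells.

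Klf4, Pparg and Stat6 had a peak in all 9 libraries, as did 54.2% of all protein-coding genes, and held 142 of the 170 peaks, while the other 5 genes shared 28. The windows differ in length, from 21.9 kb at Retnla to 122.6 kb at Mrc1 and 149.5 kb at Pparg, with 25.3 kb at Klf4 and 38.0 kb at Stat6. The receptor gene and the effector genes were without a peak in at least 2 libraries each. A peak overlapped the promoter window, from 250 bases before to 50 after the transcription start, by at least 1 base in all 9 libraries at Klf4 and in 6 at Stat6, and it spanned the start itself in 5 libraries at each gene. None of the promoter windows of Il4ra, Mrc1, Mgl2, Retnla, Chil3 or Pparg was overlapped by a peak in any library. More peaks were counted after LPS at Stat6, and after LPS+Skatole at Mrc1. Neither difference passed the test after adjustment over all genes, which even a gene at the smallest possible p did not pass.

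Peak numbers have to be read against the lists. List length was 37551 to 43450 under DMSO, 55637 to 63498 under LPS and 78136 to 80153 under LPS+Skatole, and the genome background, the expected number of fragments at an average position and here a measure of relative depth, was 1.09 to 1.40, 2.23 to 2.34 and 2.26 to 2.39. The 8 windows together held 15, 9 and 12 peaks under DMSO, 20, 16 and 23 under LPS and 26, 26 and 23 under LPS+Skatole. The means rose with list length, from 12.0 ± 3.00 to 19.7 ± 3.51 and 25 ± 1.73 (SD, n = 3 each). As a share of each list they were 0.0300% ± 0.0096 under DMSO, 0.0332% ± 0.0049 under LPS and 0.0317% ± 0.0026 under LPS+Skatole, ranges that overlapped. With every list shortened by −log10 p to about the length of the shortest list (36702 to 37932 peaks, since peaks with equal p were kept or dropped together), called lists of equal length below, the means were 10.7 ± 3.79, 13.7 ± 3.21 and 13.7 ± 3.06. As a check of the cell type, all 8 macrophage lineage genes looked up, such as Spi1 and Csf1r, had a peak in each of the 9 libraries, and each of 8 genes of other lineages lacked one in at least 1 library.

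**Figure D1:**
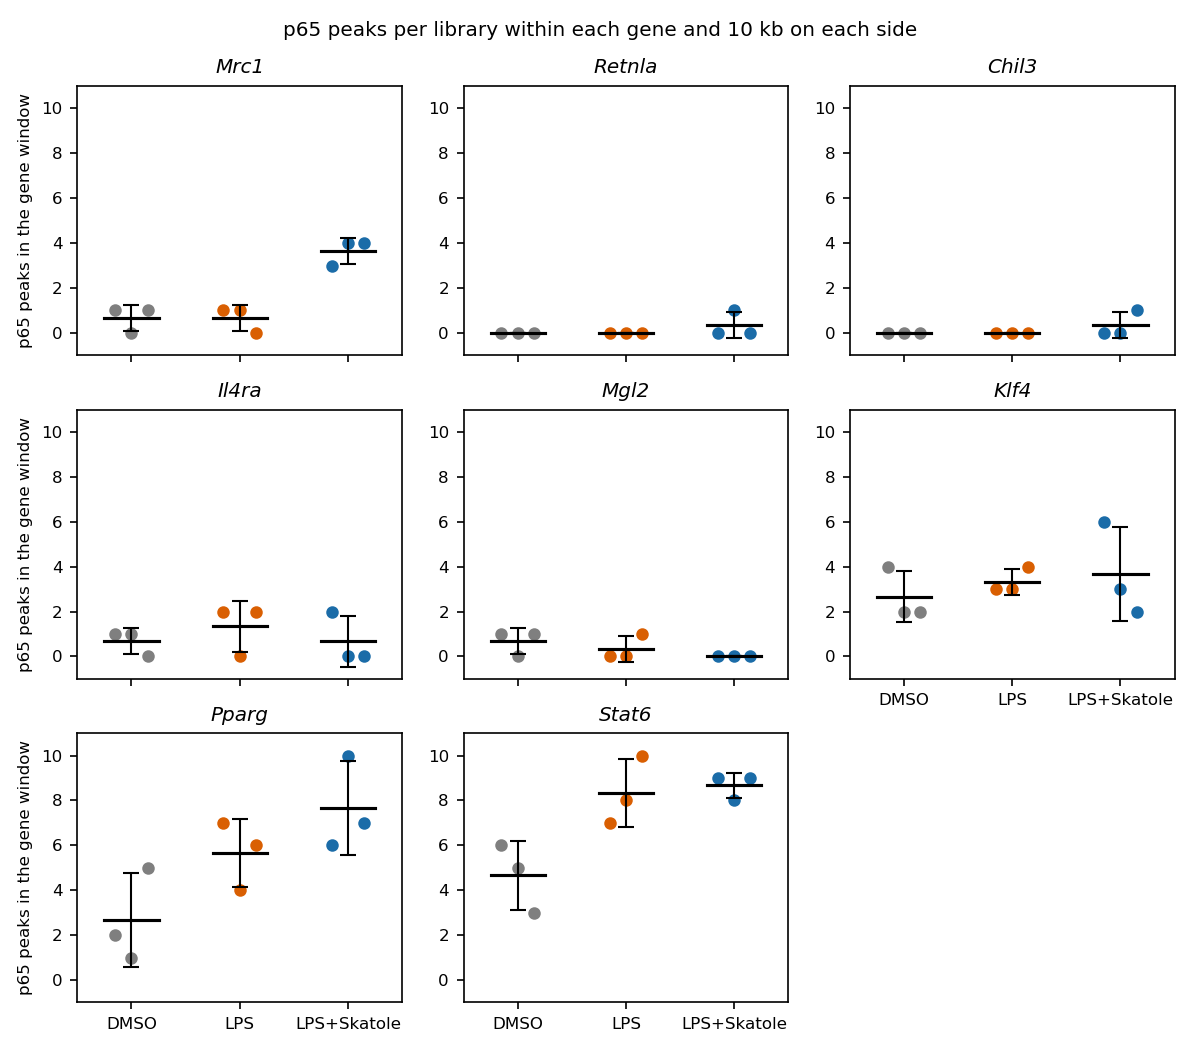
Number of p65 peaks in the window of each gene (gene body and 10 kb on each side), 1 point per library, with the mean (bar) and SD (whiskers) of the 3 libraries of each group. Mrc1 held 3 or 4 peaks under LPS+Skatole and 0 or 1 elsewhere, Stat6 held 3 to 6 in DMSO and 7 to 10 under LPS, and the groups overlap at Retnla, Chil3, Il4ra, Mgl2 and Klf4.

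The 3 groups were compared jointly by an exact permutation test over all 280 divisions of the libraries, with Benjamini-Hochberg adjustment over the 19505 genes with a peak in at least 1 library. Of the 8 genes, 2 had an unadjusted p under 0.05, Mrc1 and Stat6, beside 15.8% of all genes tested. With adjustment the count was 0, as for all genes (0%). Even the smallest p that this exact permutation test can give, 0.00357, had an adjusted p of 0.259. Failing the adjustment therefore cannot set these genes apart from others, and no conclusion is drawn from it. In pairs of groups, where 3 libraries against 3 cannot give an exact p under 0.1, the number of genes whose libraries did not overlap was counted. Every LPS library was above every DMSO library at 1 gene, Stat6, beside 12.2% of all genes, and the opposite held for 0 of the 8 and 0.364% of all. Every LPS+Skatole library was above every LPS library at 1 gene, Mrc1, beside 9.1% of all genes, and below it at 0, beside 0.774%. Every LPS+Skatole library was above every DMSO library at 3 genes, Mrc1, Pparg and Stat6, beside 25.4% of all genes, and below it at 0, beside 0.174%. A share of 1 in 8 genes is near the backgrounds of the first 2 comparisons. The comparisons share libraries, so their counts are not separate pieces of evidence.

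Il4ra, the receptor chain, had 1, 1 and 0 peaks under DMSO, 2, 0 and 2 under LPS and 2, 0 and 0 under LPS+Skatole, so the groups overlapped (exact permutation test over the 3 groups, p = 0.743). These 8 peaks fell into 6 regions, of which 5 were seen in a single library. The recurrent one, chr7:125581148-125581834, lay 1.88 kb past the end of the gene with summit counts of 15 fragments in DMSO 2, 27 in LPS 1 and 21 in LPS 3, and it had no peak under LPS+Skatole. The promoter window of Il4ra is shown because it was the only promoter window of these genes with a match to the κB consensus, the sequence NF-κB prefers. The match, on the minus strand 20 to 29 bases after the start, is in capitals. In all, 4 motifs were searched on both strands, those of κB, STAT6, AP-1 and ETS factors.
Il4ra promoter, chr7:125552021-125552320, plus strand, GRCm38: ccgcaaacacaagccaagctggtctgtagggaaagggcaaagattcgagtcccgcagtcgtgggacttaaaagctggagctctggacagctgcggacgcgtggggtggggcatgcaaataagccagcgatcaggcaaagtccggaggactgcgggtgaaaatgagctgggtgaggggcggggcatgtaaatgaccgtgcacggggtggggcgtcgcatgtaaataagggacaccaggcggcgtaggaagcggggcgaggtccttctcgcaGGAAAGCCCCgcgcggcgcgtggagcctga
This match is a description of the letters only, and 8.46% of the 32851 promoter windows in the RefSeq table hold one. No library had a peak over this window.

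Stat6, the transcription factor that the receptor activates, held 65 peaks, counting those at its neighbour Nab2, against 48 at Pparg, and with a flank of 3 kb in place of 10 kb it held 39 against 48. Its window had 6, 5 and 3 peaks under DMSO, 7, 8 and 10 under LPS and 9, 8 and 9 under LPS+Skatole. LPS and LPS+Skatole both lay above DMSO without overlap, by 3.67 and 4.00 peaks on average, and overlapped each other. The joint exact permutation test gave p = 0.0357, adjusted p = 0.259. The p rose to 0.0821 without DMSO 3 and to 0.05 without LPS 2, LPS+Skatole 1 or LPS+Skatole 3. With lists of equal length the numbers were 6, 4 and 3, then 6, 5 and 9, then 4, 6 and 6 (exact permutation test, p = 0.343), and with summit counts thinned to an equal genome background p was 0.154. With the flank of 3 kb they were 3, 4 and 2, then 4, 5 and 7, then 6, 4 and 4 (exact permutation test, p = 0.179), and both groups overlapped DMSO. Among the peaks whose summit reached at least 8 times the genome background p was again 0.0357.

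The 18 regions of the Stat6 window formed an upstream group, a start, a gene body and a downstream group. Upstream, chr10:127634380-127635907, 8.23 kb before the start, had no peak under DMSO and a peak in all 6 other libraries. Its summit counts were 40, 33 and 56 fragments under LPS and 52, 90 and 81 under LPS+Skatole. Its percentile within the list, by −log10 p with 100 the smallest p, was 45.6, 26.6 and 71.8 in LPS and 64.7, 87.6 and 83.0 under LPS+Skatole, which overlap. A percentile depends on the length of the list, so it places a peak among the peaks of its own library and is not compared by a test here. The next region, chr10:127635995-127637380, 6.18 kb before the start, had a peak with 16 fragments in DMSO 1, peaks of 33, 23 and 87 under LPS and of 58, 70 and 44 under LPS+Skatole. The region chr10:127631711-127633128, 10.9 kb upstream and as near to the start of the neighbouring gene Lrp1, straddled the edge of the window, and in only 1 of the 8 libraries that had a peak there did the peak reach the window. Its percentiles were 22.1 and 75.6 in DMSO 2 and DMSO 3, 65.01, 84.3 and 82.2 in LPS and 87.0, 87.7 and 87.1 under LPS+Skatole. By rank from the top of the list the peaks stood at 19468, 9097 and 11310 in LPS and at 10248, 9592 and 10361 under LPS+Skatole, so by rank the groups overlapped.

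The region at the start of Stat6, chr10:127642787-127644507, had a peak in all 9 libraries, with the summit at 1 of 2 places. It lay within 117 bases of the start in DMSO 1, LPS 2, LPS 3 and the LPS+Skatole libraries, and 793 to 1068 bases into the gene in DMSO 2, DMSO 3 and LPS 1. The local background, the level that the caller expected around the summit, was 13.1 to 16.4 times the genome background at the first place and 3.42 to 3.50 times at the second. The summit count was 50.5, 37.9 and 19.9 times the genome background under DMSO, 37.0, 38.2 and 42.7 under LPS and 29.5, 31.9 and 53.9 under LPS+Skatole, and all groups overlapped. The promoter window is shown because a peak overlapped it in 1 DMSO, 2 LPS and 3 LPS+Skatole libraries, by 18 of its 300 bases in LPS+Skatole 2, where the peak began past the start, and by up to 249 in the others. It has no capitals, since none of the 4 motifs searched was found in it.
Stat6 promoter, chr10:127642736-127643035, plus strand, GRCm38: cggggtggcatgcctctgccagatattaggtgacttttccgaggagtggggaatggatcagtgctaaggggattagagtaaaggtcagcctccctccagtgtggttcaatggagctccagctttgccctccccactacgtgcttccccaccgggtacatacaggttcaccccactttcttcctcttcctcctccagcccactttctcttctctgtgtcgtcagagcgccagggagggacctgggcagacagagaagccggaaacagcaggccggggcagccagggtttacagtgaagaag
In the gene body, chr10:127656713-127658912, 14.2 kb from the start and nearer to that of the neighbouring gene Nab2 (9.50 kb), had peaks of 26, 28 and 36 fragments under LPS, none under DMSO and 1 of 28 in LPS+Skatole 1.

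Downstream, both regions with a peak in all 9 libraries lie at Nab2, which encodes a repressor of EGR transcription factors. The region chr10:127661918-127663521 had its summit inside Nab2, and chr10:127665347-127669181 had its median summit 1.16 kb upstream of the Nab2 start. The second had the highest summit count over the genome background of the 5 regions with a peak in all libraries, at 86.3, 102 and 82.4 times the genome background under DMSO, 84.5, 63.8 and 89.2 under LPS and 63.3, 76.5 and 68.5 under LPS+Skatole. Its summits fell within 93 bp of each other, against a median spread of 476 bp (quartiles 255 and 978) over the 13824 regions with a peak in all libraries. Local background there was 13.2 to 26.4 times the genome background, while the median over all such regions was 1.42 and the 90th percentile 10.6. By percentile in the list the region stood below the start of Klf4 in 8 of the 9 libraries. These peaks are counted in the window of Stat6 by distance alone.

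Klf4, a zinc-finger transcription factor that Stat6 induces and works with, had 4, 2 and 2 peaks under DMSO, 3, 3 and 4 under LPS and 6, 3 and 2 under LPS+Skatole (exact permutation test, p = 0.796). All groups overlapped. The peak next to its start, chr4:55530267-55534171, was found in all 9 libraries with summits 183 to 586 bases upstream of the start. It stood at percentile 89.98, 88.6 and 73.2 in the DMSO lists, 93.0, 89.8 and 76.0 in the LPS lists and 94.2, 90.6 and 96.1 in the LPS+Skatole lists. Local background equalled the genome background there in every library. The promoter window is shown as the only window of these genes that a peak overlapped in all 9 libraries, as was the case for 20.9% of all windows. The overlap was 173 to 300 of its 300 bases, and in 4 libraries (DMSO 2, LPS 2, LPS+Skatole 1 and LPS+Skatole 2) the peak ended short of the start. It is 74.3% G or C with 40 CpG dinucleotides, against medians of 52.7% and 7 over all windows, and it too holds none of the 4 motifs. Only the summit of LPS 3, 183 bases upstream, lay inside this window. The sequence under the summits of the other libraries was not searched, so whether it holds a motif is not known here.
Klf4 promoter, chr4:55532426-55532725, minus strand, GRCm38: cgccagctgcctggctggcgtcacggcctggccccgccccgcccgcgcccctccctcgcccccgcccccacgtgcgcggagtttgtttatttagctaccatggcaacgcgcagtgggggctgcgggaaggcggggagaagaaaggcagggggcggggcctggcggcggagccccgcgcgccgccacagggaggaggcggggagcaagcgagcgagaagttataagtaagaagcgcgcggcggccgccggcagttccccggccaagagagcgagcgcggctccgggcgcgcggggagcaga
A second Klf4 region, chr4:55540773-55542318, lay 8.94 kb upstream and had no peak under DMSO. It had summit counts of 15 and 21 fragments in LPS 1 and LPS 2, and of 42, 31 and 24 under LPS+Skatole. The percentiles were 22.4 and 52.4, then 80.9, 70.5 and 57.2. By rank from the top the peaks stood at 43186 and 27665 under LPS and at 15020, 23014 and 34278 under LPS+Skatole, so by rank the LPS 2 peak stood above that of LPS+Skatole 3. LPS 3 had no peak there.

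Pparg, a nuclear receptor for fatty acids that supports the lipid metabolism of these macrophages, had 2, 1 and 5 peaks under DMSO, 7, 4 and 6 under LPS and 6, 10 and 7 under LPS+Skatole. Only LPS+Skatole and DMSO were apart (joint exact permutation test, p = 0.0607, adjusted p = 0.340). The p was 0.154 with lists of equal length, 0.0143 with thinned counts and 0.0286 among peaks of at least 8 times the genome background. Of its 24 regions, 17 were seen in a single library, 4 under DMSO, 4 under LPS and 9 under LPS+Skatole, at percentiles of 1.47 to 58.0. Of the 7 recurrent ones, 5 lay in the last part of the gene or past its end. None of the 3 promoter windows listed for Pparg was covered in any library.

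In the gene body of Pparg, chr6:115479216-115481290, 58.4 kb from the nearest listed start, had a peak in all 9 libraries. Its summits spread over 704 bp. Those of DMSO 2 and LPS 2 lay 119.7 kb from the first listed start, and those of the other libraries 119.0 to 119.3 kb. The summit count was 23.9, 36.5 and 23.5 times the genome background under DMSO, 17.4, 18.9 and 17.5 under LPS and 21.8, 35.4 and 28.4 under LPS+Skatole. On this scale the LPS libraries lay below both other groups without overlap. By the deposited fold over local background they were at 12.4, 13.3 and 12.6, and overlapped DMSO at 12.9, 21.7 and 14.0. Past the end of the gene, chr6:115490824-115491730 had a peak in the 3 LPS libraries only, with 24, 14 and 16 fragments at percentiles 56.3, 14.8 and 24.97. The next region, chr6:115492801-115493686, had peaks of 29 and 41 fragments in LPS 1 and LPS 2, of 26, 30 and 55 under LPS+Skatole and none under DMSO. The smallest summit count in any list from LPS or LPS+Skatole libraries was 11 fragments.

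**Figure D2:**
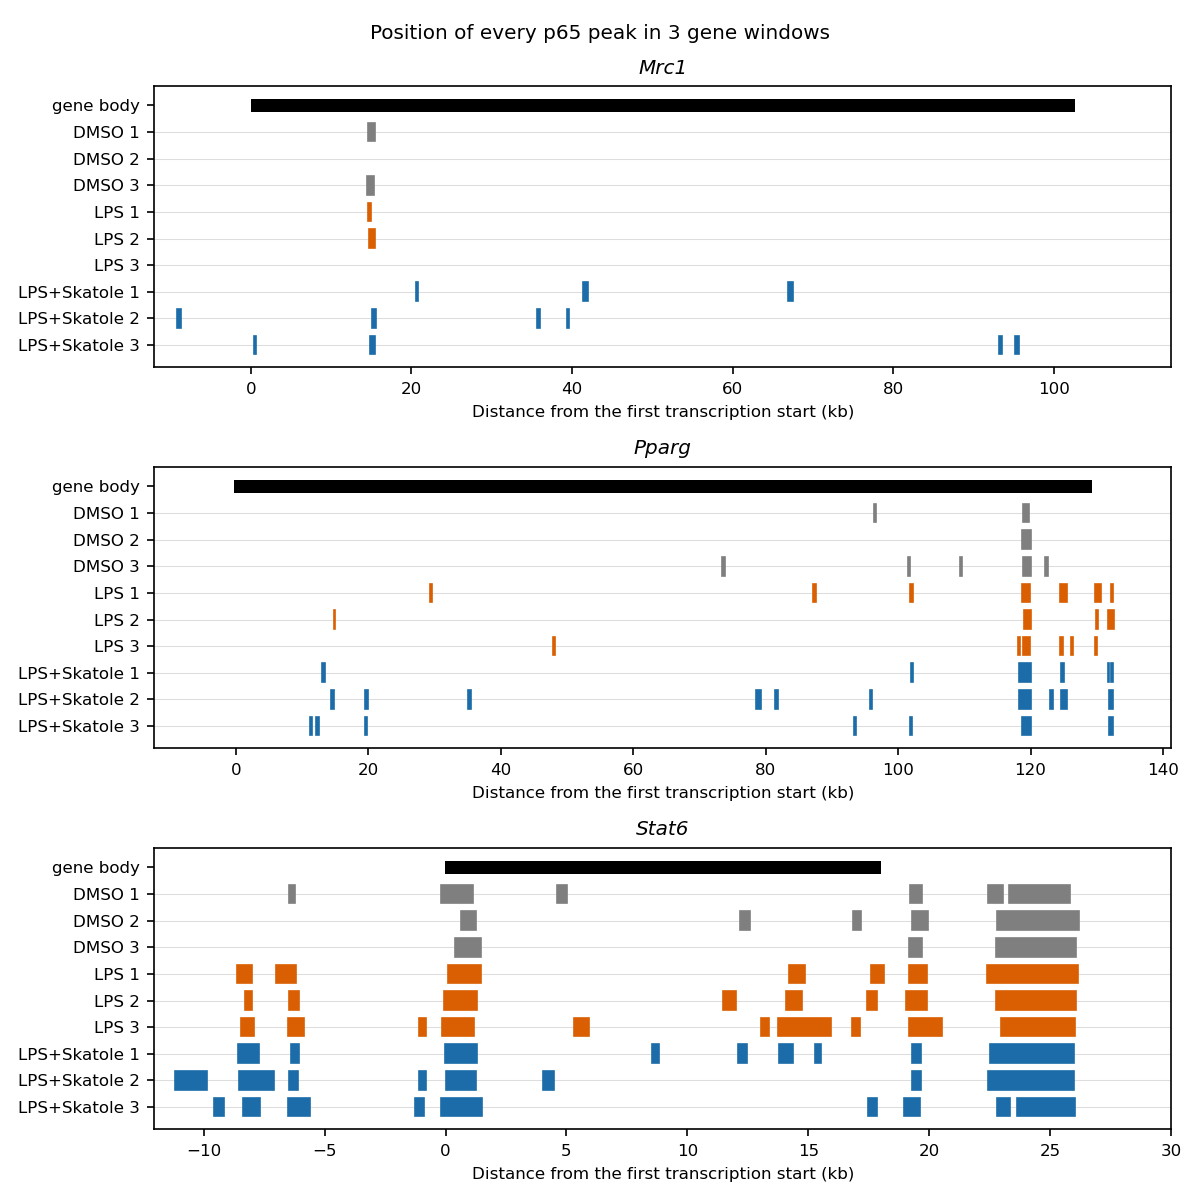
Peaks of each library (boxes, colours as groups) along the windows of Mrc1, Pparg and Stat6, by distance in kb from the first transcription start, with the gene body as a black bar. At Mrc1 the LPS+Skatole peaks share 1 position, 15 kb from the start, with the other groups, and the other 9 fall at positions seen in 1 library only. At Stat6, 11 of the 18 regions were seen in 2 or more libraries.

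Among the effector genes, Mrc1 (the mannose receptor CD206) had more peaks under LPS+Skatole, at positions that mostly did not recur. Its window had 1, 0 and 1 peaks under DMSO, 1, 1 and 0 under LPS and 3, 4 and 4 under LPS+Skatole, so LPS+Skatole lay above both other groups by 3.00 on average (joint exact permutation test, p = 0.0357, adjusted p = 0.259). The p was 0.0357 with each library left out in turn. Of its 10 regions, 9 were seen in a single LPS+Skatole library, with summit counts of 11 to 19 fragments and percentiles of 2.74 to 41.8. No 2 LPS+Skatole libraries shared any of those 9 positions, and 1 of them lay in the neighbouring gene Tmem236. The recurrent region, chr2:14243910-14245008, 15 kb into the gene, had a peak in 2 libraries of each group, with 21 and 18 fragments under DMSO, 27 and 29 under LPS and 34 and 41 under LPS+Skatole. With lists of equal length the numbers were 1, 0 and 1, then 1, 1 and 0, then 0, 1 and 1 (exact permutation test, p = 1). The p was 0.593 with thinned counts and 0.536 for peaks of at least 8 times the genome background. It was again 0.0357 (exact permutation test) at a −log10 p of at least 7 and with a flank of 3 kb. The longer LPS+Skatole lists move with this difference, and the difference was not seen at equal length.

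Mgl2, a C-type lectin, was the only gene of the 8 without a peak in any LPS+Skatole library. It had 1, 0 and 1 peaks under DMSO and 0, 0 and 1 under LPS (joint exact permutation test, p = 0.679). Those in DMSO lay in chr11:70129327-70129980, 0.73 kb before the start, at percentiles of only 16.5 and 0.558. Retnla (the secreted protein Fizz1) had a single peak, in LPS+Skatole 2, chr16:48851872-48852280, with 17 fragments at percentile 34.5. It lay 7.44 kb past the end of the gene. Chil3 (the chitinase-like protein Ym1) had a single peak, in LPS+Skatole 3, chr3:106138851-106139168, with 14 fragments at percentile 19.8. It lay 8.5 kb past the end of Chil3, and the nearest start was that of Chia1. Neither of these was found with lists of equal length or with a flank of 3 kb.

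The promoter window of Retnla is shown as the only window of these genes with the palindrome of STAT6 half-sites spaced by 4 bases, in capitals 145 to 136 bases before the start. The other capitals, 198 to 192 bases before it, mark the ETS site AGGAAGT on the minus strand, which the windows of Mrc1, Chil3 and Mgl2 also hold, and the matches do not overlap.
Retnla promoter, chr16:48842359-48842658, plus strand, GRCm38: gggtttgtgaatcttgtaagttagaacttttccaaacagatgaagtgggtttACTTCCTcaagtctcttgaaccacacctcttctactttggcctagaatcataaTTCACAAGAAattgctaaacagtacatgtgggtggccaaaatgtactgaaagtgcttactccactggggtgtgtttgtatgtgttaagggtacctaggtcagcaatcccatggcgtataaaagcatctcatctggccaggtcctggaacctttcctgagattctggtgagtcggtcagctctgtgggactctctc
Of all windows, 6.95% hold the STAT6 palindrome, 9.35% the ETS site and 7.81% the AP-1 site TGANTCA, which none of these genes' windows holds. Among these genes' 10 windows, 8 were overlapped by no peak in any library, beside 60% of all windows. Both windows with a κB or STAT6 match were among those 8. The RefSeq table gave windows for all 8 genes.

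Across the regions, 42 of the 66 were seen in a single library (63.6%, beside 71.3% of all regions in the series), 6 of them under DMSO, 10 under LPS and 26 under LPS+Skatole. A peak in all 9 libraries was found in 5 (7.58%, beside 5.88% of all regions), 1 at Klf4, 1 at Pparg and 3 in the Stat6 window. A region was called gained where all 3 libraries of a group had a peak and 0 of the reference group did, and lost in the opposite case. Against DMSO, LPS gained 3 of the 39 regions that either group had, the Stat6 regions 8.23 kb upstream and 14.2 kb inside and the Pparg region past its end, beside 1.65% of all regions. It lost 0, beside 0.0685%. Leaving out LPS 3 brought the gained regions to 6. Against LPS, LPS+Skatole gained 0 of 59, beside 0.583%, and lost 1, that same Pparg region, beside 0.129%. The lost regions were 2 without LPS 2 or without LPS+Skatole 1. Against DMSO, LPS+Skatole gained 3 of 55, the upstream regions of Stat6 and Klf4 and chr6:115492801-115493686 at Pparg, beside 2.36%, and lost 0, beside 0.0434%. Without LPS+Skatole 1 the gained regions were 5. With lists of equal length LPS gained 1 region against DMSO and LPS+Skatole lost 0 against LPS. A peak just under the threshold counts as absent, and DMSO libraries had the lowest genome background.

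**Figure D3:**
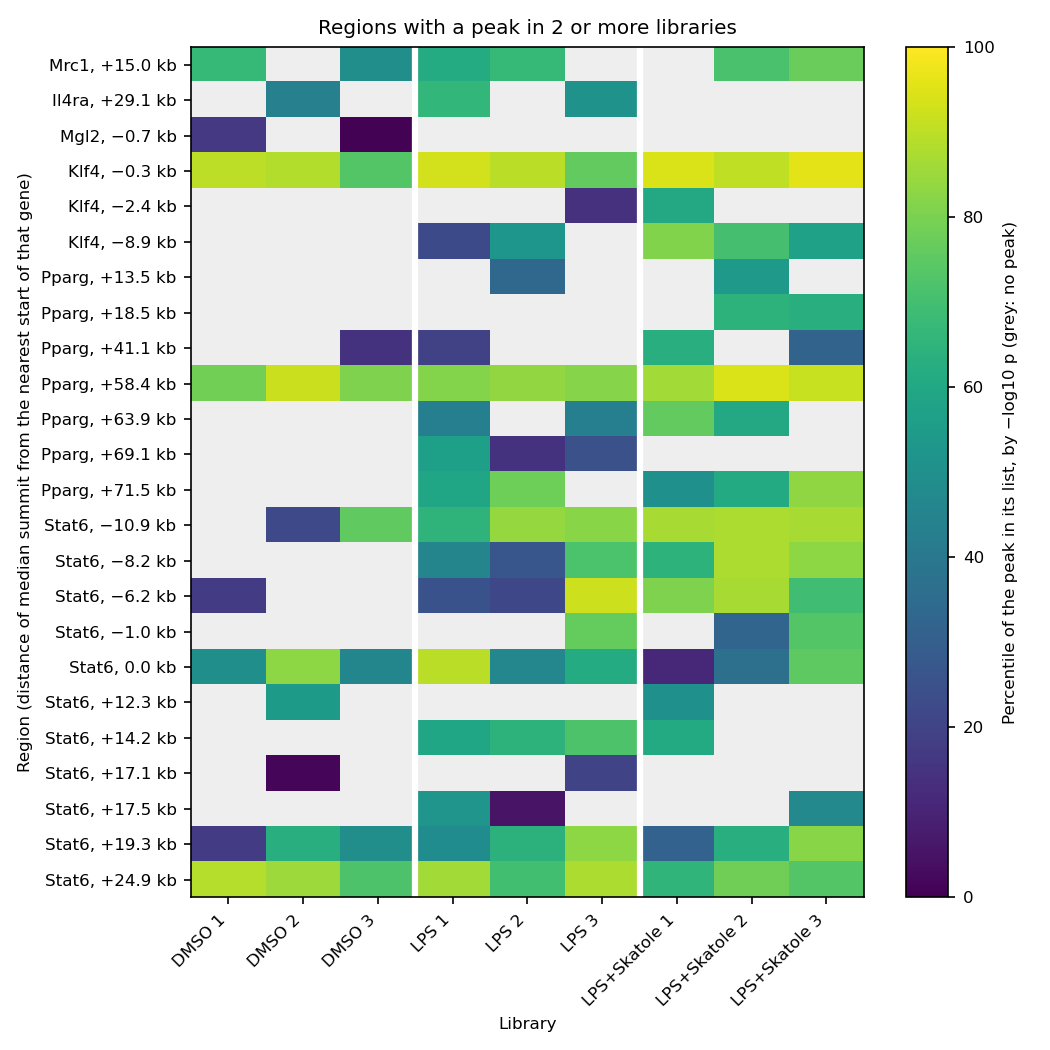
The 24 regions with a peak in 2 or more libraries, named by gene and by the distance of the median summit from the nearest listed start of that gene. Colour gives the percentile of the peak in its own list by −log10 p, and grey stands for no peak. The rows of Klf4 at its start, Pparg at +58.4 kb and Stat6 at its start, +19.3 and +24.9 kb are filled in all 9 libraries.

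For the 5 regions with a peak in every library, the log2 ratio of summit count to genome background was compared with limma over all 13824 such regions. None of the 5 passed an adjusted p of 0.05 in any comparison. With an unadjusted p under 0.05 there was 1 of 5 (Pparg) in LPS against DMSO, beside 21% of all regions, 1 of 5 (Pparg) in LPS+Skatole against LPS, beside 18.4%, and 0 in LPS+Skatole against DMSO, beside 20.7%. Over all regions, 0.275% were called higher and 0.564% lower in LPS than in DMSO, 0.246% higher and 0% lower in LPS+Skatole than in LPS, and 3.71% higher and 1.11% lower in LPS+Skatole than in DMSO. These shares depended on the scaling. For LPS against DMSO, 38 higher and 78 lower regions became 63 and 13 when centred on the median region. They became 48 and 424 with a pseudocount of 5, and 17 and 7 with the deposited fold. For LPS+Skatole against LPS, 34 and 0 became 0 and 0, 108 and 1, and 5 and 3. In LPS+Skatole against DMSO more regions were higher than lower under each of these.

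At the Pparg region the log2 difference was −0.61 for LPS against DMSO (SE 0.25, limma, adjusted p = 0.187) and 0.64 for LPS+Skatole against LPS (SE 0.25, limma, adjusted p = 0.194). The median of all regions moved the same way on this scale, by −0.24 and 0.24, so relative to it the differences were −0.37 and 0.40. With the deposited fold in place of the summit count over genome background, the first was −0.30 (limma, adjusted p = 0.754), and without DMSO 2 it was −0.40. Relative to the median, the first was −0.17 without DMSO 2 and the second 0.24 without LPS+Skatole 2. At the Klf4 start the log2 difference of LPS+Skatole against LPS was 0.63, with a 95% interval of −0.01 to 1.26 (limma, adjusted p = 0.277), and 0.39 relative to the median. Without LPS 3 it was 0.33, and 0.073 relative to the median. At the Stat6 start it was −0.08, with an interval of −0.77 to 0.60, and −0.71 with the deposited fold. At the region beyond Nab2 it was −0.18, with an interval of −0.65 to 0.29. There it went to −0.46 when centred on the median region, −0.33 without LPS 2 and −0.09 without LPS 3. These 95% intervals hold both no change and changes as large as those at Pparg in at least 1 direction. Both comparisons use the same LPS libraries, which were the lowest at Pparg.

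**Figure D4:**
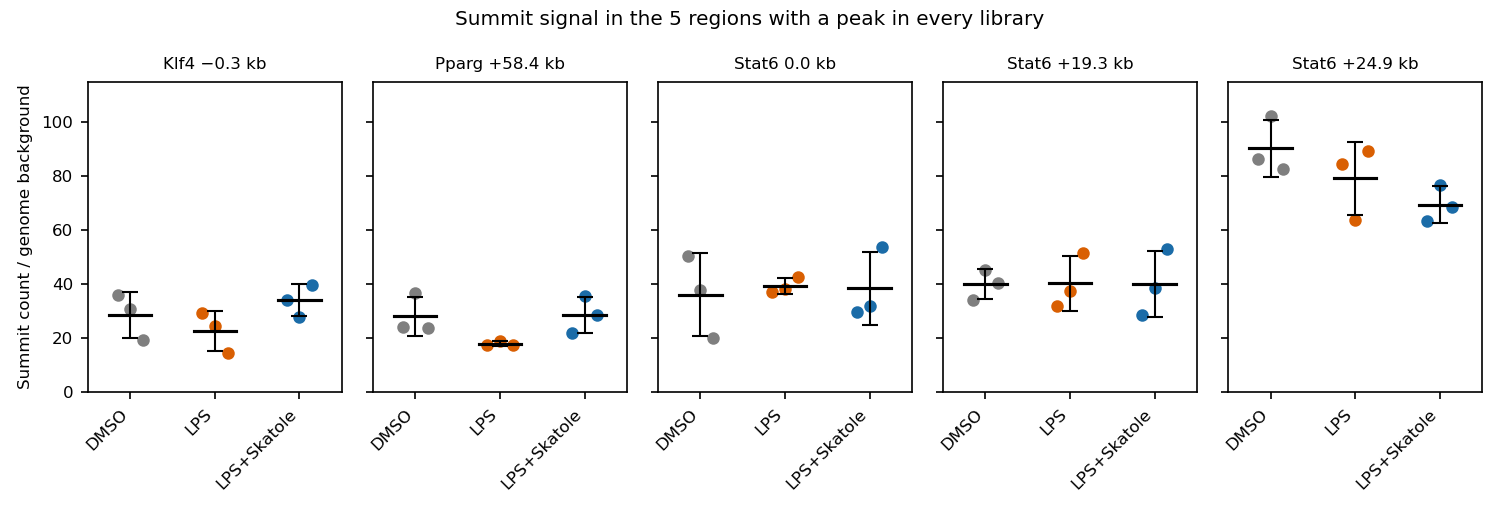
Summit count divided by the genome background in the 5 regions with a peak in every library, named by distance from the nearest listed start. Points are libraries, bars the group mean and whiskers the SD (n = 3). At Pparg the LPS libraries (17.4 to 18.9) lie below all others, and the groups overlap in the other panels, except that Stat6 at +24.9 kb had 82.4 to 102 in DMSO and 63.3 to 76.5 under LPS+Skatole.

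To set the 8 genes beside the rest of the pathway, 40 further genes of interleukin-4 and interleukin-13 signalling and alternative activation were counted in the same way. All 40 had a peak in some library, as did 89.1% of all protein-coding genes, and 24 (beside 54.2%) in all 9. The joint exact permutation test gave an unadjusted p under 0.05 for 12 of them (30%, beside 15.8% of all genes) and an adjusted one for 0. Every LPS library was above every DMSO library at 6 (Jak1, Tyk2, Cish, Mertk, Msr1 and Alox15; 15%, beside 12.2%) and below at 0. Every LPS+Skatole library was above every LPS library at 4 (Jak1, Cd200r1, Igf1 and Cdh1; 10%, beside 9.1%) and below at 0. In LPS+Skatole against DMSO these counts were 19 (47.5%, beside 25.4%) and 0. The median of the mean peak numbers was 1.67 under DMSO, 3.33 under LPS and 4.00 under LPS+Skatole, and over all genes with a peak it was 1.67, 2.67 and 3.33. With lists of equal length, an alternative chosen after seeing the data for these genes, the joint count was 0, beside 4.18% of all genes. LPS then lay above DMSO at 1 gene, Cish, beside 3.15%, LPS+Skatole above LPS at 0, beside 1.76%, and LPS+Skatole above DMSO at 3, Jak1, Mertk and Rxra, beside 3.55%. In the opposite direction, LPS lay below DMSO at 0 genes, beside 2.53%, LPS+Skatole below LPS at 3, Tyk2, Socs1 and Msr1, beside 2.28%, and LPS+Skatole below DMSO at 1, Msr1, beside 3.58%.

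By the size of the difference, the first genes for LPS against DMSO were Cish, Msr1, Tyk2, Mertk and Jak1. Cish, a feedback inhibitor of cytokine receptors, had 1, 1 and 0 peaks under DMSO, 8, 4 and 5 under LPS and 3, 4 and 4 under LPS+Skatole. Msr1, a scavenger receptor, had 11, 8 and 8, then 13, 16 and 12, then 11, 12 and 10, and with lists of equal length 11, 8 and 8, then 11, 9 and 8, then 6, 6 and 7. The Janus kinase gene Tyk2 had 7, 6 and 8, then 10, 10 and 14, then 9, 10 and 8. At these 3 genes each LPS library was at or above every LPS+Skatole library. For LPS+Skatole against LPS the first genes were Jak1, Pdcd1lg2, Cd200r1, Cdh1 and Msr1. Jak1, the kinase bound to the interleukin-4 receptor chain, had 5, 7 and 7 peaks under DMSO, 9, 9 and 10 under LPS and 15, 15 and 14 under LPS+Skatole, without overlap between any groups. Its joint exact permutation p was 0.00357, the smallest possible, and its adjusted p 0.259. With lists of equal length its numbers were 5, 7 and 6, then 6, 8 and 7, then 8, 9 and 8, and LPS overlapped both other groups (exact permutation test, p = 0.0786). Pdcd1lg2 (the ligand PD-L2) had 3, 4 and 2, then 6, 2 and 3, then 8, 5 and 10, and its LPS and LPS+Skatole libraries overlapped. Cdh1 (E-cadherin) had 1, 0 and 1, then 1, 1 and 1, then 6, 3 and 3. Cd200r1, the receptor for the inhibitory ligand CD200, had 1, 4 and 4, then 4, 3 and 3, then 5, 7 and 8. Mertk, a receptor for apoptotic cells, had 1, 4 and 3, then 5, 6 and 8, then 11, 9 and 6, and its LPS and LPS+Skatole libraries overlapped.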

How the data were processed

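The authors called peaks in each library and deposited 1 narrowPeak list per library. Each deposited row holds a score, a fold (a ratio, the pileup at the summit over the background around it), the −log10 p and −log10 q, and the offset of the summit in bases, a position and not a measurement of binding. The peak caller is not given in the sources used here. The submitters' processing notes name the build mm10 and the tools fastp 0.20.1, HISAT2 2.1.0 and StringTie 2.0, without their roles. Total reads were not used, so depth is known only as the genome background.

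Summit counts were recovered from the deposited fold and −log10 p as (count + 1)/(background + 1) and a Poisson tail, and were whole within 0.05 for at least 99.993% of peaks in each list. The lowest background shared by most peaks was taken as the genome background. Only chromosomes 1 to 19, X and Y entered. Peaks were assigned to RefSeq genes of GRCm38.p6 (gene body and 10 kb on each side) and, if they shared 1 bp or more, merged into regions. Peak numbers were compared by exact permutation tests, joint (280 divisions, smallest p 0.00357, one-sided by construction) and in pairs (two-sided, smallest p 0.1), and summit signal by limma 3.58.1 with robust empirical Bayes and no pseudocount (R 4.3.3, Python 3.11.15, scipy 1.17.1). Scripts were tested on simulated data. Promoter sequences came from RefSeq (GRCm38) and were searched on both strands. Sequence outside the promoter windows was not searched.

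The 8 genes, the lists and the tests were chosen with earlier results of these data known. A further gene of the programme is not reported here. All 8 genes are named, with each region called in all 3 libraries of at least 1 group, and for the pathway list the 5 genes with the largest difference in mean peak number in each of 2 comparisons. Regions, genes and libraries seen outside that rule are named where a count or sum rested on them. Alternatives tried were nearly equal list length, thinned counts, a −log10 p of at least 7, summits of at least 8 times the genome background, a flank of 3 kb, summits within 250 bp, presence in at least 2 of 3 libraries, the replicate number as a block, each library left out, and other scalings for limma.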

Additional observations from a re-analysis of the deposited data

How the results depend on the processing

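Peak numbers depended on the processing. Of the 8 genes, 2 (Mrc1 and Stat6) had a joint p under 0.05. The count was 0 with lists of equal length, 1 with thinned counts (Pparg, and neither of the 2), 1 with a flank of 3 kb (Mrc1) and 1 to 2 with a library left out (Mrc1 alone without DMSO 3, LPS 2, LPS+Skatole 1 or LPS+Skatole 3). It rose to 3 at a −log10 p of at least 7 (Mrc1, Pparg and Stat6). Among summits of at least 8 times the genome background it was 2 (Pparg and Stat6). The single gene higher in LPS than DMSO (Stat6) became 0 at equal length, 1 with thinned counts (Pparg, not Stat6), 0 with a flank of 3 kb, 2 at a −log10 p of at least 7 and 1 to 3 with a library left out (2 without DMSO 1 or DMSO 3, 3 without LPS 2). The single gene higher in LPS+Skatole than LPS became 0 at equal length, 0 with thinned counts and 0 among summits of at least 8 times the genome background. The 3 genes higher in LPS+Skatole than DMSO became 0 at equal length and 1 with thinned counts (Pparg). The gene count for DMSO above LPS+Skatole was 0 to 1 with a library left out (1 without DMSO 2).

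The regions gained in LPS against DMSO went from 3 to 1 at equal length, 1 with summits within 250 bp, 7 with 2 of 3 libraries and 3 to 6 with a library left out, and the lost ones from 0 to 1 with 2 of 3 libraries and 0 to 1 with a library left out (1 without DMSO 2). For LPS+Skatole against LPS, gained regions went from 0 to 1 with 2 of 3 libraries and 0 to 1 with a library left out (1 without LPS+Skatole 1), and lost ones from 1 to 0 at equal length, 0 with summits within 250 bp, 2 with 2 of 3 libraries and 1 to 2 with a library left out. For LPS+Skatole against DMSO, gained regions went from 3 to 6 with 2 of 3 libraries and 3 to 5 with a library left out, and lost ones from 0 to 1 with 2 of 3 libraries and 0 to 1 with a library left out (1 without DMSO 2). The cause of these changes was not tested beyond what each alternative removes.

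The counts of regions of these genes called by limma were 0 under each alternative that was run. Log2 differences close to 0 changed sign. For LPS against DMSO the Stat6 start went from 0.22 to −0.38 with the deposited fold and lay between −0.16 (without DMSO 3) and 0.52 with a library left out. The region inside Nab2 went from −0.01 to 0.19 when centred on the median region, 0.082 with the deposited fold, and between −0.20 and 0.15 with a library left out, above 0 without DMSO 2, DMSO 3, LPS 1 or LPS 2. For LPS+Skatole against LPS the Stat6 start was −0.08, went to −0.71 with the deposited fold and −0.36 when centred on the median region, and lay between −0.36 and 0.079 with a library left out, above 0 without LPS+Skatole 1 or LPS+Skatole 2. The region inside Nab2 was −0.02, went to −0.30 when centred on the median region, and lay between −0.25 and 0.20 with a library left out, above 0 without LPS 3 or LPS+Skatole 1. For LPS+Skatole against DMSO the Stat6 start went from 0.14 to −1.09 with the deposited fold and lay between −0.24 and 0.43 with a library left out, and over the alternatives Pparg (0.03) lay between −0.14 and 0.33 and the region inside Nab2 (−0.03) between −0.25 and 0.19. In all, 241 of 279 alternative values of the main counts stayed within 1.5 times and 38 moved.

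Libraries with the same number share nothing more in the labels. The correlation of their deviations from the group means was −0.0096 to 0.0141, so the numbers were not taken to pair the samples. With the replicate number as a replicate block, the joint count went from 2 to 0 (smallest p possible 0.0278) and the genes higher in LPS than DMSO from 1 to 2, and no limma call of these regions was made.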
